A study of Mus musculus with 8 samples.

Results

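The genes described here are the heat shock proteins and DnaJ chaperones of the mouse, measured in whole esophagus. They were chosen by symbol alone, as the protein-coding genes named Hspa, Hspb, Hspd1, Hspe1, Hsph1, Hsp90, Dnaja, Dnajb or Dnajc. The rule found 72 members among 21811 protein-coding genes in a table of 49315 identifiers, and 66 of them had enough counts to be tested. PolyA RNA of 8 male mice aged 8 weeks was sequenced. The EoE33 group held 4 mice with a transgene that overexpresses IL-33 in the esophageal epithelium, and the wild type group held 4 C57BL/6J littermates without it. The promoter that drives the transgene is not given in the sources used here. Replicates are separate samples in the labels, each of which names the genotype.

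Chaperones of the HSP70 family bind unfolded stretches of protein and release them in a cycle driven by ATP. DnaJ proteins deliver the clients and start that hydrolysis, while HSP90 acts later on nearly folded proteins such as kinases and steroid receptors. The cytosol, the endoplasmic reticulum (ER) and the mitochondria each have their own set. The cytosolic set is under heat shock factor 1, and the ER set is under the unfolded protein response with its factors ATF6 and XBP1. Small heat shock proteins hold unfolding proteins without ATP, and several of them are abundant in striated muscle, which mouse esophagus carries in its outer wall.

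Levels are CPM, counts per 1000000 counts of a scaled library, and libraries held 17726292 to 24070822 counts. Il33 checked the labels: it had 354.3, 392.8, 369.3 and 366.7 CPM in EoE33 esophagi, against 123.0, 127.4, 164.9 and 99.7 CPM in wild type esophagi. Skeletal muscle markers were lower in EoE33 for 15 of 15 genes, and their summed level was 10342.2 to 13479.4 CPM in EoE33 against 39252.4 to 42703.9 CPM in wild type. Basal keratinocyte markers were higher for 6 of 6 genes, cycling cell markers for 6 of 6 and plasma cell markers for 5 of 5. Suprabasal keratinocyte markers were lower for 6 of 6 genes, with a summed level of 14337.5 to 35756.1 CPM in EoE33 against 60874.1 to 101371.9 CPM in wild type. Smooth muscle markers were lower for 5 of 8 genes and summed to 2238.9 to 2488.3 CPM in EoE33 and 3495.1 to 7181.0 CPM in wild type. In whole tissue, fewer cells of a type and less RNA per cell cannot be told apart. Wild type replicate 3 held airway transcripts, with 446.0 CPM of 10 markers against 8.3 to 9.03 CPM in the other wild type libraries. Wild type replicate 1 held liver transcripts, with 208.9 CPM of 6 markers against 29.8 to 74.3 CPM.

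Among ER chaperones 8 of 14 were higher in EoE33, and all 6 small heat shock genes were lower. Of 19 cytosolic members 2 were higher and 9 lower, and 6 of 10 mitochondrial members did not pass. Of the 66 tested members, 17 were higher and 26 lower in EoE33 and 23 did not pass an adjusted p under 0.05 in edgeR's quasi-likelihood test. That is 25.8% higher and 39.4% lower, where 31.3% and 32.1% of all 16760 genes tested were called in those directions. In total 65.2% of tested members were called, close to the 63.4% of all genes. Counts of called members and of called list genes given below are to be read against these shares of all genes. The median log2 fold change was −0.07 over the tested members and −0.01 over all genes tested. With a log2 fold change of at least 1 in size, 6 called members were higher and 13 lower, 19 of 66. Over all genes tested, 28.3% had a change of that size, called or not, which is close to the share of members.

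Levels of EoE33 and wild type libraries did not overlap for 43 of the 66 tested members, with EoE33 above in 17 and below in 26. Dnajc14 was among these without being called, and Dnajb3 was called although its groups overlapped. Over all genes tested, 59.5% did not overlap, 29.6% with EoE33 above and 29.9% with EoE33 below. Such a separation gives p = 0.0286 when log2 CPM are compared by an exact permutation test (two-sided), the smallest that 70 orderings of 4 against 4 libraries allow. This value holds for every member below that is said not to overlap. The summed level of all members was 10212.5 ± 980.7 CPM in EoE33 and 10400.1 ± 364.2 CPM in wild type (mean ± SD, n = 4 each).

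**Figure D1:**
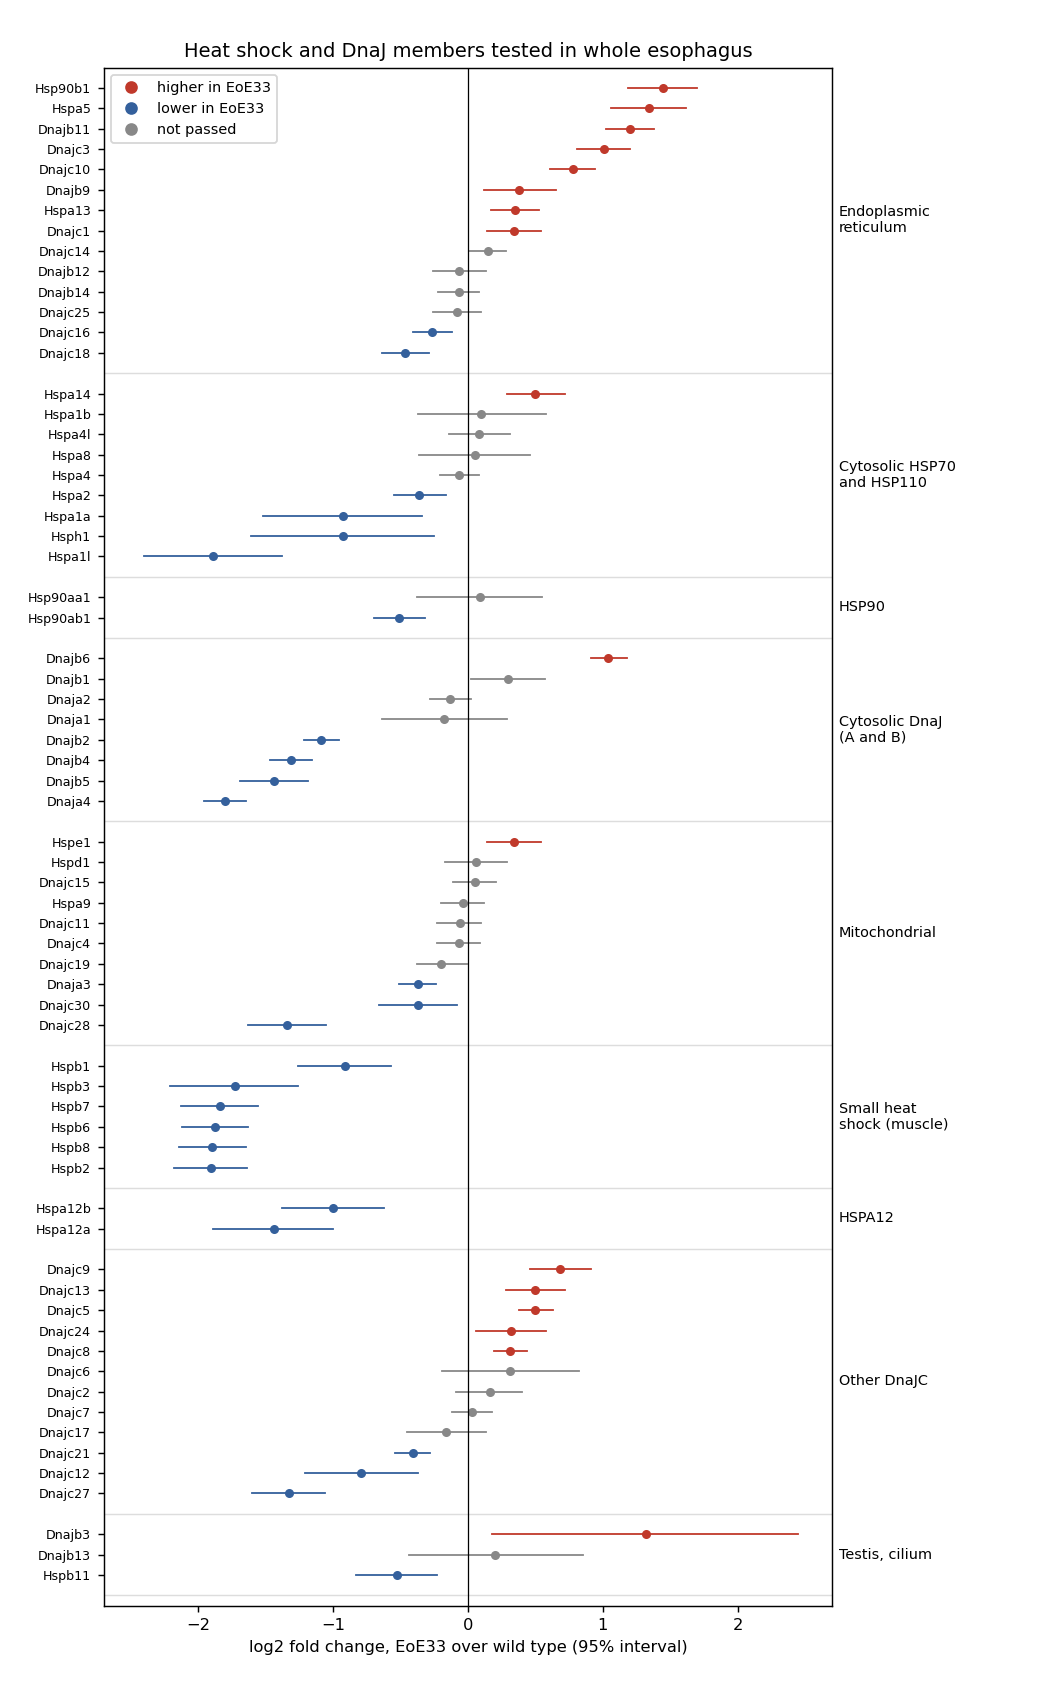
Log2 fold change of EoE33 over wild type with its 95% interval for the 66 tested members, grouped by where the protein acts. Red marks 17 members called higher, blue 26 called lower and grey 23 that did not pass. The ER group lies mostly to the right, and all 6 small heat shock members lie to the left.

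In the ER, 8 of 14 tested members were higher, 2 were lower and 4 did not pass, with a median log2 fold change of 0.34. The summed level of the ER members was 3326.9 ± 333.1 CPM in EoE33 and 1506.8 ± 150.3 CPM in wild type (mean ± SD, n = 4 each), a ratio of 2.21. The members with the largest rises were the abundant luminal chaperones and the DnaJ proteins that work with them.

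Hspa5 encodes BiP, the HSP70 of the ER lumen and the main sensor partner of the unfolded protein response. It lies on chromosome 2 from 34771970 to 34777547 (GRCm38). Hspa5 had 1176.4, 1484.2, 1580.3 and 1426.5 CPM in EoE33 esophagi, against 520.7, 487.5, 566.1 and 661.9 CPM in wild type esophagi. The groups did not overlap, and the lowest EoE33 library, replicate 1, lay well above the highest wild type library. Its log2 fold change was 1.34 ± 0.12 (standard error, SE), a 2.53-fold rise (adjusted p = 1.9e-05 by edgeR).

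Hsp90b1 encodes GRP94, the HSP90 of the ER, which folds integrins and Toll-like receptors. Its level was 949.5, 1238.3, 1202.8 and 1084.3 CPM in EoE33 esophagi and 386.0, 372.3, 408.6 and 476.2 CPM in wild type esophagi. All EoE33 libraries stood above all wild type libraries, and replicate 1 was again the lowest of the EoE33 group. The rise was 2.72-fold, on the log2 scale 1.45 ± 0.11 (SE; adjusted p = 7.37e-06 by edgeR). Per kilobase of exon, Hspa5 and Hsp90b1 were the most abundant ER members, with mean levels of 335.0 and 277.5 CPM per kb in EoE33 and 132.2 and 101.9 CPM per kb in wild type.

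Dnajb11 encodes ERdj3, a DnaJ protein of the lumen that binds clients for BiP. It had 134.8, 151.2, 165.1 and 148.5 CPM in EoE33 esophagi and 63.6, 60.7, 66.1 and 71.2 CPM in wild type esophagi, with no overlap. The rise was 2.29-fold (log2 fold change 1.20, SE 0.08, adjusted p = 3.01e-06 by edgeR). Dnajc3 encodes p58IPK, which binds clients for BiP and was first described as an inhibitor of the kinase PKR. Its level was 198.8, 244.0, 244.0 and 226.6 CPM in EoE33 esophagi and 108.2, 107.7, 112.1 and 126.8 CPM in wild type esophagi. Here too the groups did not overlap, and Dnajc3 rose 2.01-fold (log2 fold change 1.01, SE 0.09, adjusted p = 1.3e-05 by edgeR).

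The other risers of the ER changed less. Dnajc10, an ER reductase that opens disulfides of clients for degradation, averaged 84.5 ± 5.27 CPM in EoE33 and 49.3 ± 3.47 CPM in wild type (mean ± SD, n = 4 each; log2 fold change 0.78, adjusted p = 2e-05 by edgeR). Dnajb9, or ERdj4, which keeps the sensor IRE1 in check, had a log2 fold change of 0.38 (adjusted p = 0.0176 by edgeR). Its call was lost without wild type replicates 1 and 3 together (log2 fold change 0.39, adjusted p = 0.0772 by edgeR). Hspa13, a microsomal member of the HSP70 family, and Dnajc1, a transmembrane DnaJ protein that binds BiP, had log2 fold changes of 0.35 and 0.34. For all of these, no EoE33 library overlapped the wild type range.

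The falls were small. Dnajc18, a transmembrane DnaJ protein, averaged 17.4 ± 0.833 CPM in EoE33 and 24.1 ± 1.77 CPM in wild type (mean ± SD, n = 4 each; log2 fold change −0.47). Dnajc16, another transmembrane DnaJ protein, averaged 29.1 ± 1.5 CPM in EoE33 and 34.9 ± 1.33 CPM in wild type (mean ± SD, n = 4 each; log2 fold change −0.27). With library sizes that leave out Chil4, which took up to 10.979% of the counts of an EoE33 library, Dnajc16 did not pass (log2 fold change −0.16, adjusted p = 0.0559 by edgeR). Dnajb12, Dnajb14, Dnajc14 and Dnajc25 did not pass, and Dnajc22 was too low to test, with 4 counts over the EoE33 libraries and 8 over the wild type libraries. Of these, Dnajc14 was higher with library sizes that leave out Chil4 (log2 fold change 0.25, adjusted p = 0.0107 by edgeR), with DESeq2 (0.0247), with its size factors in edgeR (0.0404) and without EoE33 replicate 1 (0.0459).

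**Figure D2:**
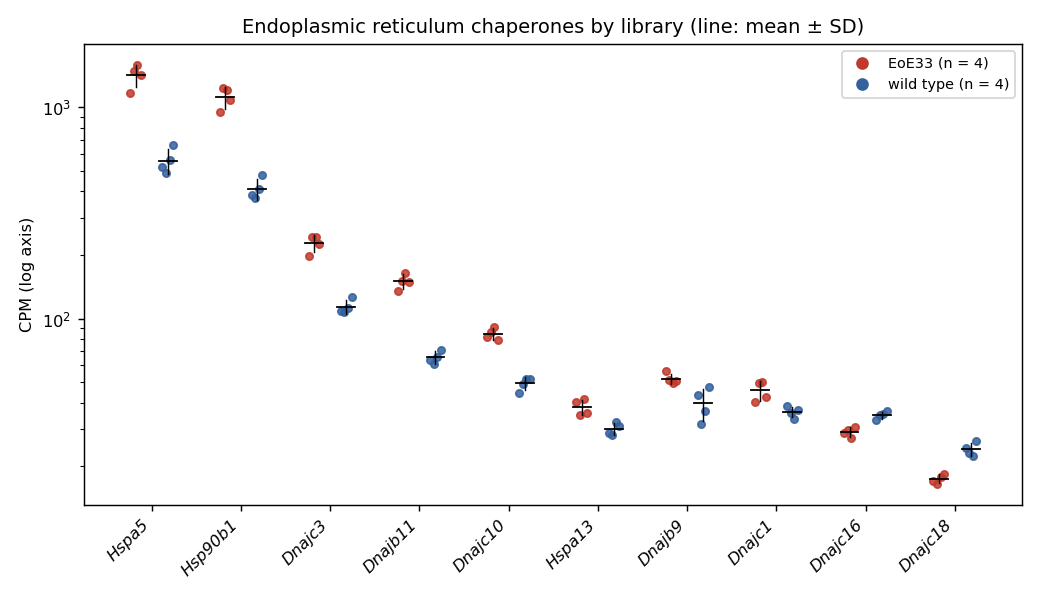
CPM on a log axis for 10 ER members, one point per library, EoE33 left of wild type in each pair, with mean and SD as lines. For Hspa5 the 4 EoE33 libraries lie between 1176.4 and 1580.3 CPM, all above the wild type libraries at 487.5 to 661.9 CPM. For Dnajc16 and Dnajc18 the order is the other way round.

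Promoters of the ER members that rose most are shown because 3 of them hold the ER stress response element, the motif known to be bound by ATF6 with NF-Y. The sequences are the 250 bases before the RefSeq transcription start on the build GRCm38.p6, 5′ to 3′, and capitals mark the match.
Hspa5 (chr2:34771840-34772089, plus strand): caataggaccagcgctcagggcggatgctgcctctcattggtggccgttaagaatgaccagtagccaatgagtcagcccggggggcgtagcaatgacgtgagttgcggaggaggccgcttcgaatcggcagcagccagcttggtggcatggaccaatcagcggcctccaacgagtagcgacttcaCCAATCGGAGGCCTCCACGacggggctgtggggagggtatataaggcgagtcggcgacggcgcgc
Hsp90b1 (chr10:86705445-86705694, minus strand): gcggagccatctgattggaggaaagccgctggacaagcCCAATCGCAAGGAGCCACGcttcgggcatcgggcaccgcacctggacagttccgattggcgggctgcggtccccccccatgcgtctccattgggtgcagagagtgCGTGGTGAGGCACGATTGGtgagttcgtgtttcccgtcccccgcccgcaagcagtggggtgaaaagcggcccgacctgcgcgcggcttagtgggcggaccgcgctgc
Dnajc3 (chr14:118937682-118937931, plus strand): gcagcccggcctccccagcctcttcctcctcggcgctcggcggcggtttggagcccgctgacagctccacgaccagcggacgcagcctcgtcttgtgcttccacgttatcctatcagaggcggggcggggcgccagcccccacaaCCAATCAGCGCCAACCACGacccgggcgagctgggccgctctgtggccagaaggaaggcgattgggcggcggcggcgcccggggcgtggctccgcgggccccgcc
The match lay 65 bases before the start in Hspa5 and 105 bases before it in Dnajc3. In Hsp90b1 there were 2 matches, beginning 212 and 107 bases before the start. The letters searched were CCAAT followed after 9 bases by CCACG, on both strands, in windows of 300 bases that run 50 bases past the start. They were present for 3 of the 58 members with a window in the table, 5.17%, and for 0.137% of 27025 genes. The motif was chosen as one already known for ATF6, so these shares are a description and carry no test. A second form, ATTGG followed after 1 base by CCACG, was added after the promoters had been read. It was found in Dnajb11 and in 0.0444% of all genes. Matches describe letters and do not show binding.

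Genes outside the families that fold or degrade proteins in the ER moved the same way. Of 27 tested genes of ER folding and the unfolded protein response, 25 were higher, 1 was lower and 1 did not pass, with a median log2 fold change of 0.97. The 3 with the smallest p were Manf, a secreted ER stress protein, and the folding genes Pdia3 and Calr. Manf averaged 218.2 ± 17.4 CPM in EoE33 and 68.7 ± 6.1 CPM in wild type (mean ± SD, n = 4 each; log2 fold change 1.67, adjusted p = 1.1e-06 by edgeR). Pdia3, a disulfide isomerase, averaged 989.7 ± 66.4 CPM in EoE33 and 345.1 ± 23.2 CPM in wild type (mean ± SD, n = 4 each). Calr, the lectin chaperone calreticulin, averaged 1268.9 ± 69.0 CPM in EoE33 and 466.8 ± 36.2 CPM in wild type (mean ± SD, n = 4 each).

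Hyou1 and Sil1, which recharge BiP with ATP, had log2 fold changes of 1.33 and 0.51. Of the sensors, Eif2ak3 (PERK) was higher with a log2 fold change of 1.20 and Ern1 (IRE1) with 0.38, while Atf6 had 0.24 and did not pass (adjusted p = 0.0516 by edgeR). Xbp1 had a log2 fold change of 0.97. The lower gene was Ddit3, which encodes the stress factor CHOP, with 17.6 ± 1.99 CPM in EoE33 and 21.6 ± 2.34 CPM in wild type (mean ± SD, n = 4 each; log2 fold change −0.30, adjusted p = 0.0394 by edgeR). With library sizes that leave out Chil4, Ddit3 did not pass (adjusted p = 0.147 by edgeR) and Atf6 was higher (0.0121).

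Cells that secrete much protein carry high levels of these genes. Plasma cell markers summed to 1125.5 to 1469.9 CPM in EoE33 and 479.2 to 546.6 CPM in wild type. Most of that sum came from Sdc1 and Xbp1, which epithelium also makes and of which Xbp1 is in the ER list too. Sdc1 averaged 514.7 ± 32.9 CPM in EoE33 and 305.8 ± 28.1 CPM in wild type, and Xbp1 359.6 ± 22.7 CPM in EoE33 and 183.6 ± 10.8 CPM in wild type (mean ± SD, n = 4 each). The immunoglobulin joining chain Jchain differed far more, with 247.5 to 501.6 CPM in EoE33 and 0.965 to 25 CPM in wild type. Mzb1, an ER protein of B lineage cells, had 5.93 to 18.6 CPM in EoE33 and 0.482 to 2.58 CPM in wild type. Tnfrsf17 was at 0 counts in 1 wild type library and at 0.648 to 2.16 CPM in EoE33. Basal keratinocyte markers summed to 15571.9 to 19517.7 CPM in EoE33 and 2570.0 to 3659.6 CPM in wild type. The part of these cells in the levels of the ER members was not tested.

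All 6 small heat shock members, a group that includes the muscle forms, were lower in EoE33, with a median log2 fold change of −1.86. Their summed level was 736.9 ± 128.1 CPM in EoE33 and 1942.1 ± 156.6 CPM in wild type (mean ± SD, n = 4 each), and none overlapped between groups. In 5 of the 6 the fall lay between 3.33-fold and 3.75-fold. Hspb1 fell 1.88-fold.

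Hspb6 encodes HSP20, a small heat shock protein of all muscle types. It had 137.4, 117.4, 103.7 and 134.8 CPM in EoE33 esophagi and 423.5, 422.1, 509.7 and 456.9 CPM in wild type esophagi (log2 fold change −1.88, SE 0.11, adjusted p = 1.66e-06 by edgeR). Hspb8 encodes HSP22, which works with BAG3 in the clearance of damaged muscle filaments. Its level was 86.7, 66.8, 77.6 and 91.8 CPM in EoE33 esophagi and 288.0, 302.9, 334.6 and 279.1 CPM in wild type esophagi (log2 fold change −1.90, SE 0.11, adjusted p = 1.56e-06 by edgeR). In both genes the lowest wild type library stood far above the highest EoE33 library, and the spread within a group was small beside that gap.

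Hspb7 encodes a small heat shock protein of heart and skeletal muscle. It had 86.0, 101.6, 83.5 and 114.8 CPM in EoE33 esophagi and 331.8, 334.5, 406.8 and 311.7 CPM in wild type esophagi (log2 fold change −1.84, SE 0.13, adjusted p = 3.49e-06 by edgeR). Hspb2, a partner of the kinase DMPK in muscle, had 9.87, 7.25, 8.53 and 10.9 CPM in EoE33 esophagi and 34.2, 35.9, 32.9 and 34.3 CPM in wild type esophagi (log2 fold change −1.91, SE 0.12, adjusted p = 2.15e-06 by edgeR). Hspb2 overlaps Cryab on the opposite strand over 30.22% of its exon length, and whether strand was used in counting is not given in the sources used here. Hspb3, which pairs with HSPB2, averaged 1.75 ± 0.499 CPM in EoE33 and 5.83 ± 0.792 CPM in wild type (mean ± SD, n = 4 each; log2 fold change −1.73).

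Hspb1, the HSP25 gene of mouse (HSP27 in human), is also made in squamous epithelium. Its level was 422.3, 317.8, 405.1 and 556.6 CPM in EoE33 esophagi and 785.4, 794.9, 883.0 and 743.0 CPM in wild type esophagi. The highest EoE33 library, replicate 4, still lay below the lowest wild type library. The log2 fold change was −0.91 ± 0.15 (SE; adjusted p = 0.000708 by edgeR). Per kilobase of exon Hspb1 was the most abundant small heat shock gene, with a mean level of 412.7 CPM per kb in EoE33 and 777.5 CPM per kb in wild type, and 36.62% of its sequence windows of 150 bases also occur in pseudogenes. Suprabasal keratinocyte markers, the differentiated layers of that epithelium, fell beside it, and their mean summed level was 25694.0 ± 9942.4 CPM in EoE33 and 82893.5 ± 17033.2 CPM in wild type (SD, n = 4 each), 3.23-fold lower. Among them Krt13 averaged 17283.0 ± 5984.0 CPM in EoE33 and 33676.0 ± 7679.3 CPM in wild type, and Lor 864.4 ± 791.9 CPM in EoE33 and 13085.6 ± 1653.9 CPM in wild type (mean ± SD, n = 4 each). The part of the epithelium in the level of Hspb1 was not tested.

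Set against the skeletal muscle markers, most of these genes no longer separated the groups. Per 1000 CPM of the 15 markers, Hspb6 averaged 11.1 ± 1.5 CPM in EoE33 and 11.1 ± 1.43 CPM in wild type (mean ± SD, n = 4 each). Hspb8 averaged 7.25 ± 0.869 in EoE33 and 7.39 ± 0.741 in wild type on that scale, and Hspb7 8.63 ± 0.707 in EoE33 and 8.5 ± 1.21 in wild type (mean ± SD, n = 4 each). Hspb2 and Hspb3 overlapped between groups as well. Hspb1 did not: it averaged 37.8 ± 5.17 in EoE33 and 19.7 ± 1.82 in wild type per 1000 CPM of muscle markers (mean ± SD, n = 4 each), with every EoE33 library above. The marker sum was 3.65-fold lower in EoE33, so a gene that fell clearly less, as Hspb1 did, comes out above on this scale without a rise. These ratios are a description and carry no test.

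**Figure D3:**
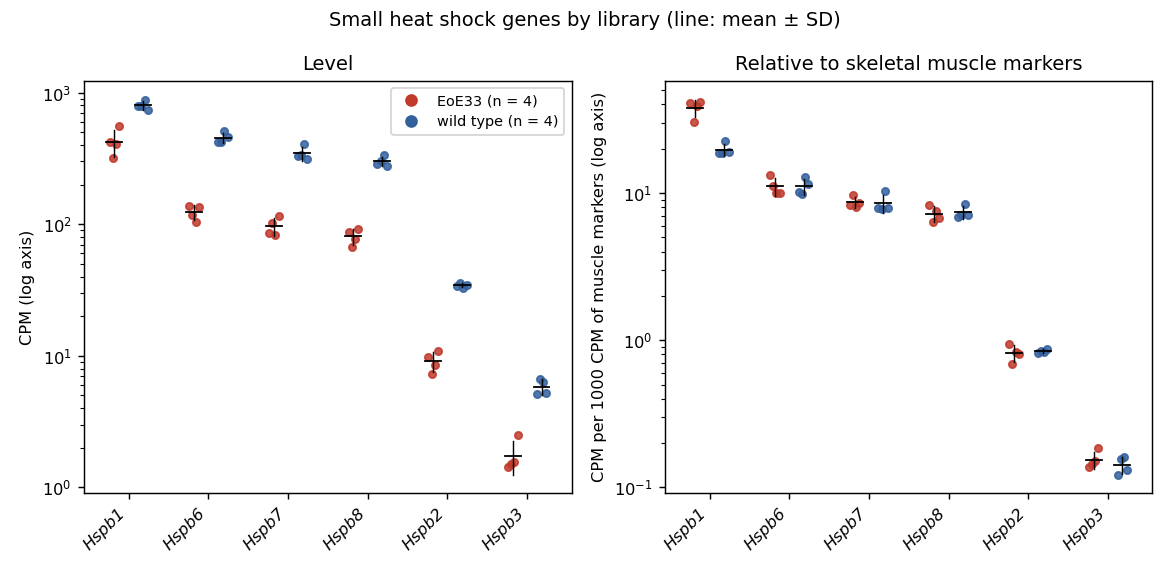
Small heat shock genes by library on log axes, EoE33 left of wild type, with mean and SD as lines. The left panel gives CPM, where all 6 genes are lower in EoE33, and the right panel gives CPM per 1000 CPM of 15 skeletal muscle markers. On the right, EoE33 libraries lie above wild type for Hspb1 and the groups overlap for the other 5 genes.

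A list of muscle chaperones and other muscle genes outside the families fell with them, 6 of 6 tested, with a median log2 fold change of −2.04. It held Cryab, Unc45b, Smyd1, Bag3, Trim54 and Trim63, not all of which are chaperones. Cryab, the small heat shock protein alphaB-crystallin, averaged 84.0 ± 14.1 CPM in EoE33 and 375.7 ± 28.9 CPM in wild type (mean ± SD, n = 4 each). Unc45b, the myosin chaperone, had a log2 fold change of −2.15, and Smyd1, a methyltransferase of the sarcomere, −2.07. Bag3, the partner of HSPB8, had the smallest fall of the list at −0.69. It is counted again below among the heat shock factors and cochaperones.

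The cytosolic set of HSP70, HSP110, HSP90 and DnaJ proteins of classes A and B did not move together. Of its 19 tested members, 2 were higher, 9 were lower and 8 did not pass, with a median log2 fold change of −0.18. Its summed level was 4788.1 ± 631.4 CPM in EoE33 and 5635.6 ± 341.6 CPM in wild type (mean ± SD, n = 4 each), and the ranges overlapped. The summed levels were 3916.1, 4942.5, 5424.7 and 4869.2 CPM in EoE33 esophagi and 5775.0, 5439.5, 5282.7 and 6045.0 CPM in wild type esophagi, so EoE33 replicate 1 stood lowest. Replicate 1 was the lowest EoE33 library in 11 of these 19 members, 57.9%, and in 7 of 14 tested ER members. It was lowest in 25 of all 66 tested members, 37.9%, and in 26.4% of all genes tested. Of the 10 mitochondrial members it was lowest in 2, and EoE33 replicate 2 in 5. Among wild type libraries, replicate 2 was lowest in 8 of the 19 cytosolic and 8 of the 14 ER members. Members can vary together, so these counts are a description. What underlies the low values of EoE33 replicate 1 was not tested.

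Hspa8, the constitutive HSC70, was by mean level per kilobase the most abundant HSP70 gene of the cytosol. Its mean was 325.4 CPM per kb in EoE33 and 313.7 CPM per kb in wild type, and 22.4% of its windows are shared with other gene models. It had 889.1, 1571.9, 1703.8 and 1434.0 CPM in EoE33 esophagi, against 1306.2, 1279.8, 1285.4 and 1525.0 CPM in wild type esophagi. The groups overlapped, and EoE33 replicate 1 was the lowest of all 8 libraries. Its log2 fold change of 0.05 had a 95% interval from −0.36 to 0.46 (adjusted p = 0.814 by edgeR). Without EoE33 replicate 1 it was 0.22 (adjusted p = 0.0927 by edgeR).

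Hspa1a and Hspa1b encode nearly the same stress-inducible HSP70, from neighbouring genes on chromosome 17. Hspa1a lies from 34969190 to 34972156 and Hspa1b from 34956436 to 34959238 (GRCm38). Hspa1a had 40.0, 56.2, 67.5 and 67.7 CPM in EoE33 esophagi, against 154.4, 73.1, 91.3 and 121.8 CPM in wild type esophagi. The groups did not overlap, but wild type replicate 2 lay close to the 2 highest EoE33 libraries. The log2 fold change of Hspa1a was −0.93 ± 0.26 (SE; adjusted p = 0.0126 by edgeR). Without wild type replicates 1 and 3 it was −0.76 and did not pass (adjusted p = 0.0536 by edgeR). Hspa1b averaged 254.9 ± 52.1 CPM in EoE33 and 237.5 ± 61.2 CPM in wild type (mean ± SD, n = 4 each) and did not pass (log2 fold change 0.10, 95% interval from −0.37 to 0.58).

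The pair is near-identical, so the split of reads between the genes is uncertain. Of windows of 150 bases, 45.95% of Hspa1a and 40.47% of Hspa1b occur elsewhere in the annotated transcripts, first of all in each other. Hspa1a also overlaps the protein-coding gene Gm20481 on the opposite strand over 19.01% of its exon length. Whether strand was used in counting is not given, so this too bears on the level of Hspa1a and its share. Summed, the pair had 233.5, 293.5, 383.8 and 340.3 CPM in EoE33 esophagi and 454.6, 239.7, 299.3 and 396.9 CPM in wild type esophagi. The groups overlapped, and the log2 fold change of the sum was −0.15 (adjusted p = 0.564 by edgeR), so that the call for Hspa1a did not hold for the pair.

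The share of Hspa1a in the counts of the pair was 17.1%, 19.1%, 17.6% and 19.9% in EoE33 esophagi and 34.0%, 30.5%, 30.5% and 30.7% in wild type esophagi. These shares were far apart between the groups and close within each, unlike the level of the pair. They were computed after the values of both genes had been seen and are given with no test. How reads that match both genes were counted is not given in the sources used here.

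**Figure D4:**
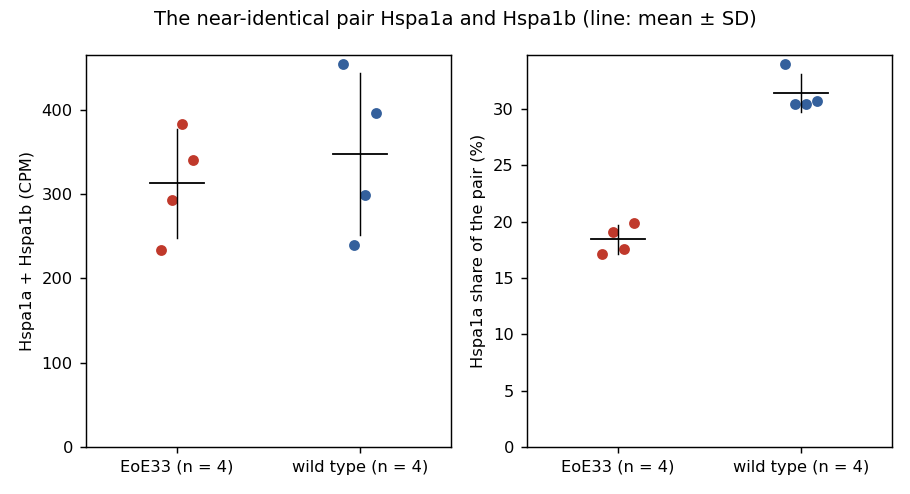
Summed CPM of Hspa1a and Hspa1b (left) and the share of Hspa1a in their counts in percent (right), one point per library, EoE33 left of wild type, with mean and SD as lines. The sums overlap between groups, while the shares are 17.1% to 19.9% in EoE33 and 30.5% to 34.0% in wild type.

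The promoters of the pair are shown because they differ in so few bases, 3 of 250, while the genes' counts behaved differently. Both are read on the minus strand of GRCm38.p6 from RefSeq, and capitals mark the match to the shorter heat shock element, GAANNTTC or TTCNNGAA.
Hspa1a (chr17:34972157-34972406, minus strand): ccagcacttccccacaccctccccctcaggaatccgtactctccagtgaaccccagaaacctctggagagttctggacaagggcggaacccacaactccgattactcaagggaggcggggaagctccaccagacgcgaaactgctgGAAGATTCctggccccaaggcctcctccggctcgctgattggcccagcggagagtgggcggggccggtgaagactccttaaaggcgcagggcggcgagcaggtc
Hspa1b (chr17:34959239-34959488, minus strand): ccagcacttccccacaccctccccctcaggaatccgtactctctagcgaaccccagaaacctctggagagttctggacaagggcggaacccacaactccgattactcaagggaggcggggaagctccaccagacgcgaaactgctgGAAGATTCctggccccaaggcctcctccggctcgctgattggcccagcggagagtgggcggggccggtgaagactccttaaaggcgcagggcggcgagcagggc
The match lay 104 bases before the start in each, and 98.8% of the bases were identical. The shorter element was found in 16 of the 58 members with a window, 27.6%, and in 17.0% of all genes. The longer element adds the third unit, GAA, TTC and GAA or TTC, GAA and TTC, each 2 bases apart, and was not found in these windows of either gene.

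Hsph1, the HSP110 that exchanges nucleotide on HSP70, had 46.2, 105.3, 140.7 and 90.4 CPM in EoE33 esophagi, against 190.8, 161.6, 168.7 and 208.2 CPM in wild type esophagi. The groups did not overlap, but the EoE33 libraries were spread widely, with an SD of 0.68 in log2 CPM where the median gene above 10 CPM had 0.14. The log2 fold change was −0.93 ± 0.29 (SE; adjusted p = 0.0238 by edgeR). It was −0.70 without EoE33 replicate 1, and the call was lost without EoE33 replicate 4 (adjusted p = 0.0574 by edgeR), without wild type replicate 4 (0.0617), without wild type replicates 1 and 3 together (0.0923) and with no filter on counts (0.0786).

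Less abundant HSP70 genes of the cytosol also passed. Hspa14, a ribosome-bound HSP70, had 30.1, 35.9, 36.3 and 28.1 CPM in EoE33 esophagi and 24.2, 23.7, 21.5 and 22.8 CPM in wild type esophagi (log2 fold change 0.50, SE 0.10, adjusted p = 0.00148 by edgeR). Hspa2, best known from spermatocytes, had 7.87, 8.71, 8.66 and 8.53 CPM in EoE33 esophagi and 11.1, 10.3, 10.8 and 11 CPM in wild type esophagi (log2 fold change −0.36, SE 0.09, adjusted p = 0.00526 by edgeR). Hspa1l had 2.91, 1.29, 2.11 and 2.84 CPM in EoE33 esophagi and 8.18, 8.9, 9.13 and 7.96 CPM in wild type esophagi (log2 fold change −1.89, SE 0.23, adjusted p = 9.02e-05 by edgeR). None of them overlapped between groups, and Hspa2 did not pass without wild type replicates 1 and 3 (adjusted p = 0.0546 by edgeR). For Hspa1l, 70.21% of its windows are shared with an antisense gene and with the Hspa1 pair, so its counts are uncertain. Per 1000 CPM of skeletal muscle markers Hspa1l overlapped between groups. Hspa4 and Hspa4l, further HSP110 proteins, had log2 fold changes of −0.07 and 0.08 and did not pass.

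Of the 2 HSP90 genes, 1 was called lower and 1 did not pass. Hsp90ab1, the constitutive form, had the highest mean level per kilobase of the HSP70, HSP110, HSP90 and DnaJ genes of the cytosol, 503.3 CPM per kb in EoE33 and 715.2 CPM per kb in wild type. Its level was 1454.9, 1401.0, 1603.1 and 1578.3 CPM in EoE33 esophagi and 2164.8, 2200.9, 1939.6 and 2274.3 CPM in wild type esophagi. It fell 1.42-fold with no overlap (log2 fold change −0.51, SE 0.08, adjusted p = 0.000696 by edgeR). Hsp90aa1, the inducible form, had 193.3, 336.8, 364.3 and 244.0 CPM in EoE33 esophagi and 263.2, 229.1, 248.9 and 331.0 CPM in wild type esophagi. These overlapped, and its log2 fold change of 0.09 did not pass (95% interval from −0.38 to 0.55). Of the windows of Hsp90aa1, 36.17% are shared with other gene models, against 0.0% for Hsp90ab1, so its level is less certain. The difference between the 2 genes' changes was not tested.

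Of the cytosolic DnaJ genes, 1 of 8 was higher, 4 were lower and 3 did not pass. Over all genes tested, 31.3% were higher and 32.1% lower. Dnajb6, a suppressor of protein aggregation, had 193.1, 204.7, 190.4 and 182.6 CPM in EoE33 esophagi and 96.2, 94.5, 94.9 and 88.3 CPM in wild type esophagi. The values were tight within each group and did not overlap (log2 fold change 1.04, SE 0.06, adjusted p = 1.57e-06 by edgeR), and 29.72% of its windows are shared with other gene models. Dnaja4, a DnaJ protein of heart and skeletal muscle, had 36.2, 34.3, 33.6 and 40.1 CPM in EoE33 esophagi and 123.0, 126.5, 129.5 and 124.5 CPM in wild type esophagi (log2 fold change −1.80, SE 0.07, adjusted p = 3.45e-07 by edgeR). Its exons overlap Wdr61 on the opposite strand, and 50.18% of its windows are shared with that gene.

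Dnajb2, a cochaperone of neurons and muscle that binds ubiquitin, had 46.8, 49.9, 48.7 and 53.4 CPM in EoE33 esophagi and 107.2, 103.6, 106.9 and 106.0 CPM in wild type esophagi (log2 fold change −1.09, SE 0.06, adjusted p = 1.12e-06 by edgeR). Dnajb4, a partner of HSP70 that is abundant in muscle, had 34.9, 34.4, 33.1 and 37.5 CPM in EoE33 esophagi and 90.4, 86.6, 79.9 and 90.8 CPM in wild type esophagi (log2 fold change −1.31, SE 0.07, adjusted p = 1.03e-06 by edgeR). Neither overlapped. Dnajb5, known from heart muscle as a redox-sensitive partner of histone deacetylase 4, averaged 31.8 ± 3.66 CPM in EoE33 and 86.3 ± 10.1 CPM in wild type (mean ± SD, n = 4 each; log2 fold change −1.44). Per 1000 CPM of skeletal muscle markers, Dnaja4 overlapped between groups, with 3.24 ± 0.208 in EoE33 and 3.09 ± 0.169 in wild type (mean ± SD, n = 4 each). Dnajb2, Dnajb4 and Dnajb5 were higher in every EoE33 library on that scale, as were Dnajc27 and Dnajc28 outside this set. Each of these genes fell less than the marker sum, which was 3.65-fold lower in EoE33. Their order on that scale follows from this and shows no rise of the genes.

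Dnaja1, Dnaja2 and Dnajb1 did not pass. Dnaja2 had 172.3, 176.5, 178.7 and 186.7 CPM in EoE33 esophagi and 192.7, 201.6, 208.2 and 177.3 CPM in wild type esophagi, with overlap and a log2 fold change of −0.13. Dnaja1, the HSP40 with a farnesyl anchor, had a log2 fold change of −0.18 and a 95% interval from −0.64 to 0.29. Dnajb1, the inducible HSP40, averaged 192.8 ± 12.8 CPM in EoE33 and 157.1 ± 27.4 CPM in wild type (mean ± SD, n = 4 each), with a log2 fold change of 0.30 (adjusted p = 0.0585 by edgeR). Dnajb1 was higher with DESeq2 (adjusted p = 0.038), with library sizes alone (0.0446) or without Chil4 (0.00892), and with no filter on counts (0.0404). It was also higher without wild type replicate 1 (adjusted p = 0.0308 by edgeR), 3 (0.0483) or both (log2 fold change 0.50, adjusted p = 0.00927 by edgeR). Dnaja2 was lower without wild type replicate 4 (adjusted p = 0.0461 by edgeR).

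**Figure D5:**
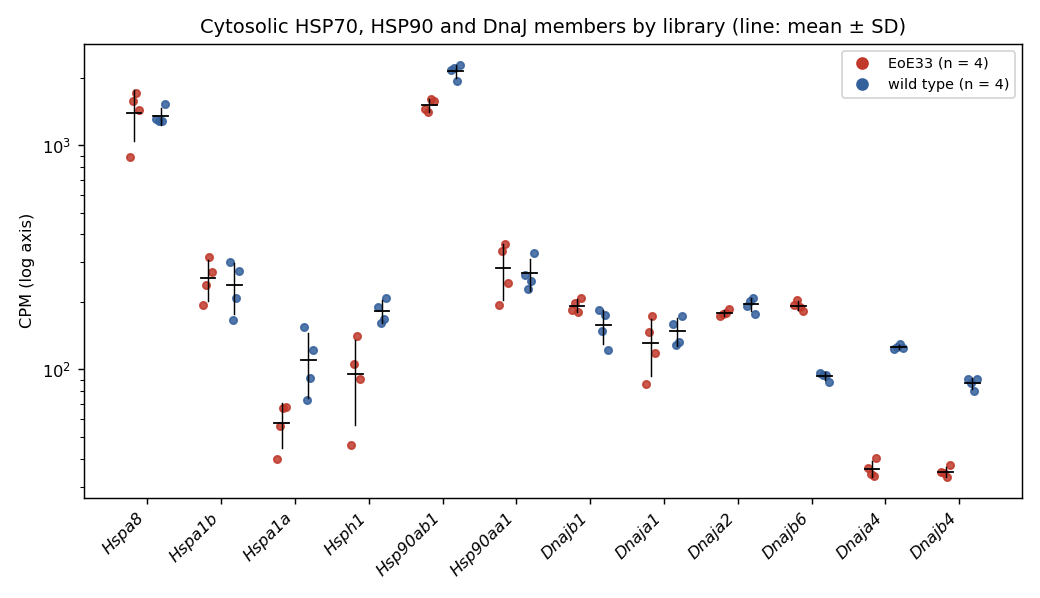
CPM on a log axis for 12 cytosolic members, one point per library, EoE33 left of wild type in each pair, with points in replicate order and mean and SD as lines. EoE33 replicate 1 is the leftmost and lowest EoE33 point of Hspa8 at 889.1 CPM and of Hsph1 at 46.2 CPM. Dnajb6 is higher in EoE33, and Dnaja4, Dnajb4 and Hsp90ab1 are lower.

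Heat shock factors and the cochaperones of HSP70 and HSP90 were mostly lower. Of 23 tested, 4 were higher, 14 were lower and 5 did not pass, where 31.3% and 32.1% of all genes were called in those directions. The median log2 fold change of the 23 was −0.35. With library sizes that leave out Chil4, 4 were higher and 11 lower. Without wild type replicates 1 and 3 together, 3 were higher and 10 lower. Hsf1 averaged 33.6 ± 3.43 CPM in EoE33 and 47.5 ± 1.72 CPM in wild type (mean ± SD, n = 4 each; log2 fold change −0.50), and Hsf2 11.8 ± 0.655 CPM in EoE33 and 26.2 ± 1.01 CPM in wild type (mean ± SD, n = 4 each; log2 fold change −1.15). St13, a cochaperone of HSP70, had a log2 fold change of −0.64. Bag2 and Bag1, which release clients from HSP70, were higher with log2 fold changes of 0.84 and 0.53. Of the 8 subunits of the cytosolic chaperonin CCT, Cct2 was higher with a log2 fold change of 0.19 and 7 did not pass. This rested on the scaling: 6 were higher with library sizes that leave out Chil4, and none was higher and 1 lower with library sizes alone.

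In the mitochondria, 1 of 10 members was higher, 3 were lower and 6 did not pass. Over all genes tested, 31.3% were higher and 32.1% lower. The median log2 fold change of the 10 members was −0.07. The summed level was 776.9 ± 68.1 CPM in EoE33 and 786.2 ± 9.68 CPM in wild type (mean ± SD, n = 4 each), with overlap. The chaperonin genes Hspd1 (HSP60) and Hspe1 (HSP10) share a bidirectional promoter on chromosome 1. Hspd1, the most abundant member of this set per kilobase, had 204.0, 260.3, 281.7 and 215.9 CPM in EoE33 esophagi and 231.1, 224.3, 234.0 and 233.0 CPM in wild type esophagi. Wild type libraries were nearly level, EoE33 libraries lay on both sides of them, and the log2 fold change of 0.06 did not pass (95% interval from −0.17 to 0.29).

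Hspe1 had 76.6, 89.0, 96.8 and 74.2 CPM in EoE33 esophagi and 69.0, 63.3, 67.2 and 66.0 CPM in wild type esophagi. It did not overlap and rose 1.27-fold (log2 fold change 0.34, SE 0.09, adjusted p = 0.00831 by edgeR). Whether the change of Hspe1 differs from that of Hspd1 was not tested. Hspa9, the HSP70 of the matrix (mortalin), averaged 282.6 ± 22.4 CPM in EoE33 and 290.4 ± 8.53 CPM in wild type (mean ± SD, n = 4 each) and did not pass.

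The longer heat shock element was found in 4 of the 58 members with a window, 6.9%, and in 0.662% of all genes. These members were Hspd1, Hspe1, Hsph1 and Dnajb6. Hspe1 and Dnajb6 are shown because they were called higher, whereas Hsph1 was called lower. The strand and build are given with each, from RefSeq on GRCm38.p6.
Hspe1 (chr1:55087898-55088147, plus strand): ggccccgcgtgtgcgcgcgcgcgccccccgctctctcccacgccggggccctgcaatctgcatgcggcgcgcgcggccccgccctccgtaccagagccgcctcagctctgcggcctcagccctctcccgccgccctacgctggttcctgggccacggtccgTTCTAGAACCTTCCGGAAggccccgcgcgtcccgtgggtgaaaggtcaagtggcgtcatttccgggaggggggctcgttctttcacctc
Dnajb6 (chr5:29735648-29735897, plus strand): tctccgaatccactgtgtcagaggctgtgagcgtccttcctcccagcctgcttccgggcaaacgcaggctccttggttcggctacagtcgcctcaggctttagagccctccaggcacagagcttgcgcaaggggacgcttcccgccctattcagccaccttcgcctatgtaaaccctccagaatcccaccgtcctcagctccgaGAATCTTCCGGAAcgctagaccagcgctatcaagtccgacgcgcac
In Hspe1 a pair of overlapping matches began 89 and 84 bases before the start, and in Dnajb6 the match began 46 bases before it. The members with this element thus included 2 higher, 1 lower and 1 that did not pass. Hspd1 and Hspe1 share a promoter, so their matches may be the same bases and are not independent. The element was chosen as one already known for heat shock factor 1, and its shares carry no test.

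Among the mitochondrial members that fell, Dnaja3 (Tid1), a partner of mortalin that is needed to keep mitochondrial DNA, had 47.7, 46.9, 53.7 and 48.6 CPM in EoE33 esophagi and 63.5, 64.9, 65.3 and 61.6 CPM in wild type esophagi (log2 fold change −0.37, SE 0.06, adjusted p = 0.000609 by edgeR). Dnajc28 had 3.91, 3.51, 4.61 and 4.34 CPM in EoE33 esophagi and 10.8, 10.3, 9.0 and 11.5 CPM in wild type esophagi (log2 fold change −1.34, SE 0.13, adjusted p = 2.46e-05 by edgeR). Both were clear of overlap. Dnajc30, which sits at the ATP synthase, had 10.7, 7.95, 10.8 and 8.53 CPM in EoE33 esophagi and 12.7, 12.0, 11 and 13.4 CPM in wild type esophagi (log2 fold change −0.37, adjusted p = 0.0284 by edgeR). Here the groups nearly touched, Dnajc30 overlaps Bud23 on the opposite strand over 26.25% of its exon length, and the call was lost without wild type replicate 1 (adjusted p = 0.0653 by edgeR), 2 (0.0617) or 4 (0.0699) and without EoE33 replicate 2 (0.0641) or 4 (0.073). It was lost too without wild type replicates 1 and 3 together (adjusted p = 0.0693 by edgeR), with no filter on counts (0.0558) and with library sizes that leave out Chil4 (0.125). Dnajc15 and Dnajc19, which act in protein import, and Dnajc11 and Dnajc4 did not pass with all libraries. The number of mitochondrial members called lower varied when single libraries were left out, as given at the end.

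Of 9 tested mitochondrial folding genes outside the families, 2 were higher, 4 were lower and 3 did not pass. Grpel2, a nucleotide exchange factor of mortalin, averaged 70.8 ± 14.6 CPM in EoE33 and 23.6 ± 1.75 CPM in wild type (mean ± SD, n = 4 each; log2 fold change 1.59, adjusted p = 1.25e-05 by edgeR). Its paralog Grpel1 had a log2 fold change of 0.21. Trap1, the HSP90 of the mitochondria, was lower with a log2 fold change of −0.20. None of the 4 was called lower with library sizes that leave out Chil4, nor without wild type replicates 1 and 3.

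Of the 12 remaining DnaJC genes outside the ER and the mitochondria, 5 were higher, 3 were lower and 4 did not pass. Over all genes tested, 31.3% were higher and 32.1% lower. The median log2 fold change of the 12 was 0.24. Dnajc5 encodes the cysteine string protein of exocytic vesicles. It had 162.2, 168.6, 162.6 and 166.6 CPM in EoE33 esophagi and 115.3, 117.7, 121.6 and 110.9 CPM in wild type esophagi (log2 fold change 0.50, SE 0.05, adjusted p = 4.65e-05 by edgeR). Dnajc9, a cochaperone of histones H3 and H4, had 23.1, 29.3, 29.5 and 23.6 CPM in EoE33 esophagi and 16.4, 17.5, 15.9 and 16.0 CPM in wild type esophagi (log2 fold change 0.68, SE 0.10, adjusted p = 0.000315 by edgeR). Neither overlapped. Cycling cell markers summed to 562.6, 712.4, 703.7 and 468.9 CPM in the EoE33 libraries and to 105.5 to 145.2 CPM in wild type, and their part in the level of Dnajc9 was not tested.

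Dnajc8, a splicing-associated DnaJ protein and the most abundant of this set per kilobase in EoE33, had 72.5, 70.5, 70.3 and 66.0 CPM in EoE33 esophagi and 55.6, 56.0, 58.1 and 55.0 CPM in wild type esophagi (log2 fold change 0.31, SE 0.05, adjusted p = 0.000843 by edgeR). Dnajc13 (RME-8), which acts in endosomal sorting, had a log2 fold change of 0.50. Dnajc24, needed for the diphthamide modification of elongation factor 2, had 0.32 (adjusted p = 0.0351 by edgeR). The call of Dnajc24 was lost without EoE33 replicate 1 (adjusted p = 0.0861 by edgeR) or 4 (0.0638) and without wild type replicate 1 (0.104), 2 (0.0701), 3 (0.0585) or both 1 and 3 (0.200). It was also lost with library sizes alone (adjusted p = 0.066 by edgeR) and with no filter on counts (0.0821).

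Dnajc27, also called RBJ, a Rab-like GTPase with a J domain, had 9.54, 7.36, 10.3 and 10.1 CPM in EoE33 esophagi and 22.9, 26.4, 23.2 and 21.4 CPM in wild type esophagi (log2 fold change −1.33, SE 0.12, adjusted p = 1.57e-05 by edgeR). Dnajc21, which acts in ribosome maturation, had 36.8, 39.7, 36.8 and 38.7 CPM in EoE33 esophagi and 51.5, 52.4, 47.8 and 49.8 CPM in wild type esophagi (log2 fold change −0.41, SE 0.06, adjusted p = 0.000253 by edgeR). The groups stood apart in both. Dnajc12, a cochaperone of aromatic amino acid hydroxylases, averaged 1.87 ± 0.179 CPM in EoE33 and 3.24 ± 0.609 CPM in wild type (mean ± SD, n = 4 each; log2 fold change −0.79), and it did not pass without wild type replicates 1 and 3 (adjusted p = 0.0669 by edgeR). Dnajc2, Dnajc6, Dnajc7 and Dnajc17 did not pass, with log2 fold changes of 0.16, 0.31, 0.03 and −0.16.

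Both HSPA12 genes, distant relatives of HSP70, were lower. Hspa12a had 6.48, 5.14, 8.62 and 8.23 CPM in EoE33 esophagi and 18.3, 14.6, 20.6 and 24.3 CPM in wild type esophagi (log2 fold change −1.44, SE 0.20, adjusted p = 0.000214 by edgeR). Hspa12b, an endothelial gene, had 8.68, 7.13, 11.1 and 9.62 CPM in EoE33 esophagi and 20.2, 15.3, 15.6 and 22.1 CPM in wild type esophagi (log2 fold change −1.0, SE 0.17, adjusted p = 0.000709 by edgeR). Wild type libraries varied in both genes, and their lowest still lay above the highest EoE33 library.

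Of the 8 members known from testis or cilium, 3 were tested. Hspb11 (IFT25), a component of intraflagellar transport, had 3.62, 3.39, 3.27 and 3.89 CPM in EoE33 esophagi and 5.25, 5.79, 4.73 and 4.71 CPM in wild type esophagi, with no overlap (log2 fold change −0.53, SE 0.13, adjusted p = 0.00668 by edgeR). Dnajb3 had 1.43, 0.468, 1.25 and 1.85 CPM in EoE33 esophagi and 1.02, 0.307, 0.296 and 0.385 CPM in wild type esophagi (log2 fold change 1.32, SE 0.50, adjusted p = 0.0439 by edgeR). These overlapped, and the call of Dnajb3 was lost without EoE33 replicate 1 (adjusted p = 0.0886 by edgeR), 3 (0.0764) or 4 (0.118) and without wild type replicate 2 (0.102), 3 (0.102) or 4 (0.0971). Without wild type replicate 1 the log2 fold change was 1.91 (adjusted p = 0.00893 by edgeR). Dnajb13, a sperm and cilium gene, did not pass, with 2.68 ± 1.16 CPM in EoE33 and 2.31 ± 0.32 CPM in wild type (mean ± SD, n = 4 each).

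The other 5 were too low to test. Hspb9 had 29 counts over the EoE33 libraries and 8 over the wild type libraries, Dnajb7 had 16 in EoE33 and 34 in wild type, and Dnajb8 had 0 in EoE33 and 1 in wild type. Dnajc5b and Dnajc5g were at 0 counts in all 8 libraries, where 3 counts, the limit that a count of 0 allows, correspond to 0.127 to 0.175 CPM. Such limits cover counting error only.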

How the data were processed

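Whole esophagus of 4 EoE33 and 4 wild type mice was sequenced as polyA RNA in paired-end mode, per the labels' protocols. The authors deposited raw counts per gene, and columns were assigned to samples by the spreadsheet letter in each description. The submitters' processing notes name Trimmomatic 0.36, STAR 2.5.2b, featureCounts, Subread 1.5.2 and GRCm38. Whether counting used strand, and how multi-mapping reads were handled, is not given in the sources used here. Where strand is not used, reads of antisense partners cannot be told apart.

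Symbols and coordinates came from GENCODE M21, which matched 49056 of 49315 identifiers. Of 75 genes that fit the symbol rule, 3 of other biotypes were left out. Genes were filtered by filterByExpr, scaled by TMM and tested with edgeR 4.0.16 (quasi-likelihood, robust) in R 4.3.3, with Benjamini-Hochberg adjustment over 16760 genes and a threshold of 0.05. CPM were computed from the deposited counts with scaled library sizes, exact permutation tests used log2 of CPM plus 0.1, and standard errors came from the F statistic. The median standard error was 0.368 below 1 CPM and 0.089 above 100 CPM. Libraries of a group differed by more than sampling noise, with chi-square per degree of freedom from 10.38 to 70.1. P-values set the difference between the groups against the spread between the samples of a group.

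In 2 simulated draws, the fit recovered 46% and 28% of 50 genes changed 1.5-fold, and 74% and 88% of those changed 2-fold. It recovered 100% of those raised 4-fold and 98% of those lowered 4-fold in both draws, with 10 and 6 false calls. Counts were drawn at wild type means with few genes changed. The draws gave 169 and 163 calls, whereas 63.4% of 16760 genes were called in the data. Adjustment for multiple tests is looser when so many genes are called, so these rates do not carry over to the data. Promoters are RefSeq windows on GRCm38.p6 and were present for 58 members. No window was at hand for Dnajc11, Hspa13, Hsp90ab1, Hspa9, Hsp90aa1, Dnajc5b, Dnajc30, Dnajc2, Dnajc22, Hspa8, Hspb2, Dnajc18, Dnajc5 and Dnajc12. Members described in full are Hspa1a, Hspa5, up to 4 with the smallest p of each group (from 1 CPM on average upwards), and the most abundant of each group per kilobase. Hsph1, Hsp90aa1 and Dnajb3 were added after their values were seen. From the lists outside the families, genes beyond the 3 with the smallest p were likewise chosen after their values were seen. Members and lists were chosen with earlier results of these data known. Alternatives were other scalings (DESeq2 1.42.0 size factors, upper quartile, library size with and without Chil4), the DESeq2 test, limma-voom 3.58.1, other filters and thresholds, the replicate number or muscle level as a further term, and leaving out libraries. In the labels used here, same-numbered replicates share only a number, and no batch is given.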

Additional observations from a re-analysis of the deposited data

Results flagged for a closer look

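In wild type, Hspa8 stood apart in replicate 4, at 1525.0 CPM against 1279.8 to 1306.2 CPM in the other 3 libraries. The gap to the nearest library was 0.892 of the range, above Dixon's 95% critical value for 4 samples. This was 1 of 66 groups of libraries checked, over the members given in full, and chance alone flags about 1 in 20.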

How the results depend on the processing

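Over 23 alternatives and 66 tested members, 1394 of 1517 values kept their direction and their side of the threshold, 93 lost the call, 16 gained it and 14 turned sign. Of 43 called members, 34 held under every scaling, test, filter and left-out library. The exceptions were Hspa1a, Hspa2, Hsph1, Dnajb9, Dnajc16, Dnajc30, Dnajc12, Dnajc24 and Dnajb3. Library sizes that leave out Chil4 raised the median of all genes by 0.10 on the log2 scale, so fold changes under that scaling are to be read against this shift. The other scalings moved it by at most 0.02.

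All 14 turned signs came when the summed skeletal muscle markers were added to the model, in which 1 gene of all was higher and 0 were lower, and 0 members of any group were called. That level and the genotype have a squared correlation of 0.984, so the fit cannot tell them apart. The log2 fold changes were then −0.57 for Hspa14, 0.37 for Hspa1a, −0.17 for Dnajb9, −0.16 for Dnajc1, −0.07 for Dnajc10, 0.12 for Dnajc16, −0.53 for Hspa13, −0.80 for Hspe1, −0.91 for Dnajc13, −0.20 for Dnajc8, −0.10 for Dnajc9, 1.40 for Hspb1, 1.65 for Hspb3 and 0.74 for Hspb11.

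With a change of at least 1 on the log2 scale required, 2057 genes were higher and 2496 lower. Members then numbered 6 higher and 13 lower, cytosolic members 1 and 5, ER members 4 and 0, and mitochondrial members 0 and 1. With library sizes that leave out Chil4, 1 ER member was lower. Leaving out 1 library at a time gave 4825 to 5160 genes higher and 4880 to 5333 lower, and 15 to 17 members higher and 24 to 27 lower. Cytosolic members were 2 to 3 higher and 8 to 9 lower, ER members 8 to 9 higher and 2 lower, mitochondrial members 1 higher and 2 to 4 lower, and small heat shock members 0 higher and 6 lower. Without wild type replicates 1 and 3 together, which held airway and liver transcripts, 16 members were higher and 21 lower, with 6 cytosolic members lower and 7 ER members higher.

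With the replicate block, 16 members were higher and 25 lower, and 4936 genes were higher and 5120 lower. It lost the calls of Dnajc30 (edgeR adjusted p = 0.0531) and Dnajc24 (0.0808) and changed no other member's call. Deviations of same-numbered libraries correlated by 0.104, −0.122, 0.056 and −0.136, and those of differently numbered libraries by −0.118 to 0.152. No pairing by number was seen, but with 4 libraries per group this check cannot exclude one. Depth limits the members under 1 CPM, where the median standard error was 0.368.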
